A study of Mus musculus with 9 samples.

Results

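Cumulus cells of females that lack the growth factor BMP15 and carry a single intact allele of Gdf9 (Bmp15-/-Gdf9+/-, the double mutant, DM) were compared with wildtype cumulus cells on oligonucleotide expression arrays. The comparison takes the 3 arrays titled as DM cumulus cells and the 3 titled as wildtype, 6 of the 9 arrays of the series, and every gene that has a probe set of its own and was bright enough to test. These were 13447 of 18194 genes. Each gene was read from the probe set with the highest mean, and a gene was tested when at least 3 of the 9 arrays lay above the 40th percentile of their own array. The other 4747 genes were called dim and left out. The remaining 3 arrays are of Bmp15-/- females, which lack BMP15 with Gdf9 not named as altered, and they are set beside the DM values.

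All 3 groups shared a mixed B6/129 background. They were females of 4 to 5 months, each primed with 5 IU of eCG, a gonadotropin that drives follicle growth, for 48 hours. Complexes of oocyte and cumulus cells came from large antral follicles, 75 to 100 complexes from 3 to 4 mice to a sample, so an array reads a pool of animals. Isolation medium held 5 µM milrinone, which blocks the oocyte phosphodiesterase and holds the oocyte in meiotic arrest. The oocytes were stripped off by pipette and 10 ng of RNA was amplified in 2 cycles. Each genotype has 3 pools, numbered 1 to 3 in the titles, and the numbers are not said to mark shared batches. With no word on which animals went into each pool, the p-values measure the spread between these samples.

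BMP15 and GDF9 are oocyte-secreted ligands of the TGF-beta (transforming growth factor beta) superfamily. They bind complexes of type II and type I serine-threonine kinase receptors on granulosa cells, and the activated receptors phosphorylate SMAD proteins that enter the nucleus. Oocytes burn glucose and make sterols poorly, and they are known to draw pyruvate, amino acids and sterol products from the cumulus cells around them, whose metabolism these ligands promote. Cumulus cells are also the cells that make the hyaluronan-rich matrix that expands around the ovulated egg.

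The 10 defining markers of granulosa cells, among them Foxl2, Fshr and Inha, lay above the 40th percentile on all 9 arrays, the lowest being Amh at 6.07 and Kitl at 7.49 (log2 values). That floor does not show a level kept, and Foxl2 itself was lower in DM, as given below. Of 11 cumulus markers 8 fell and 2 rose (median -0.78), and they summed to 14.18 to 14.53 in DM, 14.75 to 14.85 in Bmp15-/- and 15.10 to 15.16 in wildtype (log2 of the sum over markers), with glycolysis and cholesterol enzymes among them that return in their groups. Of 8 mural granulosa markers 1 rose and 2 fell, with sums of 10.20 to 10.42 in DM and 10.86 to 11.04 in wildtype. Wildtype array 1 stood apart in the targeted gene, because its Bmp15 value of 5.10 was that of the mutants while wildtype arrays 2 and 3 read 9.58 and 8.41. Both targeted genes are oocyte transcripts, so each call in DM that is led with below was counted again without that array. Of 20 oocyte markers 1 fell and 0 rose by limma (2 and 0 at an unadjusted p of 0.05), with summed levels of 9.81 to 10.32 on the DM arrays and 10.14 to 11.87 on the wildtype arrays. Theca and stroma markers summed to 12.68 to 12.81 in DM and 12.16 to 12.41 in wildtype, with 3 of 9 higher and 2 lower. Surface epithelium markers summed to 11.57 to 12.13 and 10.15 to 10.50, with 3 of 8 higher and Epcam and Upk3b not called. Smooth muscle and pericyte markers summed to 9.31 to 9.41 and 8.99 to 9.04, with 1 of 9 higher, Acta2, and 1 lower. Such sums follow their brightest members, and the medians over the members of these lists overlapped between DM and wildtype. For theca and stroma they were 5.88, 5.56 and 5.92 on the DM arrays and 5.82, 6.10 and 5.63 on the wildtype arrays. For surface epithelium, which holds Wt1, they were 6.50, 6.51 and 6.56 and 6.53, 6.37 and 6.55. For smooth muscle they were 5.84, 5.43 and 5.54 and 5.45, 5.85 and 5.39. Of 5 immune and 4 endothelial markers 0 were called by limma, and 0 passed an unadjusted p of 0.05. The Gapdh 3' minus 5' difference, a sign of RNA length, was 0.79 to 0.95 in DM, 0.66 to 0.73 in Bmp15-/- and 0.52 to 0.59 in wildtype, while for beta-actin the wildtype range, 1.87 to 1.90, lay inside the DM range of 1.85 to 2.12. The part of oocyte RNA, of other cells and of RNA length in the differences below was not tested, except that the counts were repeated with the oocyte marker level as a covariate.

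In DM cumulus cells 1338 genes were higher than in wildtype and 2442 lower, together 28.1% of those tested, with limma and Benjamini-Hochberg adjustment at p under 0.05 over all 13447 genes. The higher calls were 9.95% and the lower calls 18.2% of all genes tested, and these are the shares against which the gene groups below are read. Most differences were small. The median called gene differed by 0.60 on the log2 scale, 324 genes were called and at least 2-fold higher (2.41%) and 345 called and at least 2-fold lower (2.57%), and 8 and 9 genes passed 8-fold. Every DM array lay above every wildtype array for 15.9% of genes and below for 27.4%. After quantile normalization 1738 calls were higher and 1858 lower, so that the lower share of calls was 51.7% in place of 64.6%. Without wildtype array 1 there were 2655 calls, of which 2580 were among the 3780. The share of calls differed with brightness: with the genes in 4 equal bins of mean level, 6.81%, 16%, 26.8% and 23% were lower from the dimmest bin to the brightest, and 6.66%, 8.51%, 11.3% and 13.3% were higher. In bulk RNA, fewer cells of a type and less RNA per cell cannot be told apart.

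**Figure D1:**
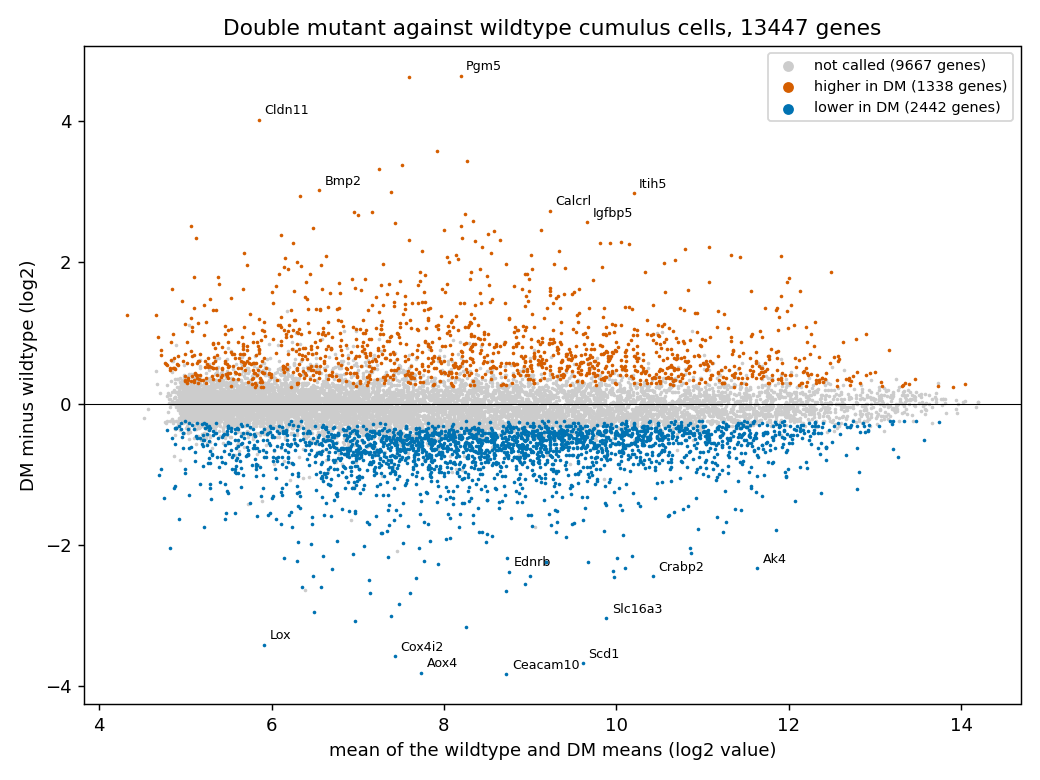
Each point is 1 of 13447 genes, with the mean of the wildtype and DM means on the x axis and the difference DM minus wildtype on the y axis (both log2). The 1338 genes called higher are orange, the 2442 called lower blue and the others grey, with a median of 0.65 for the rises and -0.58 for the falls and the largest rise at 4.64 for Pgm5.

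The ligands, receptors and SMAD proteins of the superfamily moved little as groups, with single members that moved far. Values in brackets below are the log2 difference DM minus wildtype with its standard error (SE) from the fit and limma's adjusted p over all genes tested. Of 12 tested ligands 1 rose and 2 fell, of 12 receptors 3 rose and 3 fell, and of 13 SMADs and co-regulators 2 rose and 3 fell, with medians of -0.10, 0.09 and 0.05 beside -0.06 over all genes. Bmp2, a ligand of the BMP branch, read 5.18, 5.13 and 4.81 on wildtype arrays 1 to 3 and 8.19, 8.50 and 7.48 on DM arrays 1 to 3 (3.02, SE 0.36, adjusted p = 4.93e-04). Every DM array lay far above wildtype, where Bmp2 was close to the 40th percentile, whose mean is 5.02. The Bmp15-/- arrays lay in between at 6.12, 5.76 and 7.23. Inhba and Inhbb, which encode the beta subunits of activins and inhibins, fell (-0.89, SE 0.22, adjusted p = 0.0158 and -0.75, SE 0.15, adjusted p = 0.00574). Their lowest values were on DM array 3, at 10.51 for Inhba against 11.27 and 11.59 on DM arrays 1 and 2, and the call of Inhba was lost without wildtype array 1. Inha, the alpha subunit, had a difference of -0.11 and was not called.

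Among the receptors Tgfbr3, Tgfbr2 and Amhr2 rose while Acvr1b, Acvr1 and Bmpr1a fell. Tgfbr3, the co-receptor betaglycan, read 10.37, 10.09 and 10.51 in wildtype and 11.32, 11.20 and 11.12 in DM (0.89, SE 0.12, adjusted p = 9.98e-04). Tgfbr2 rose by 0.81 and Amhr2, the receptor of anti-Müllerian hormone, by 0.72. The type I receptors Acvr1b (-0.72), Acvr1 (-0.65) and Bmpr1a (-0.37) fell. Without DM array 2, wildtype array 1 or wildtype array 3 only Acvr1b was called lower, and Bmpr1a was also lost without wildtype array 2 or DM array 1 and Acvr1 without DM array 3 or Bmp15-/- array 3. Bmpr2 and Bmpr1b, the receptors through which BMP15 acts, differed by 0.07 and 0.11 and were not called. The secreted antagonist Grem1 fell (-1.47, SE 0.46, adjusted p = 0.0394), with a wide spread in DM from 7.64 on array 3 to 9.93 on array 2, next to the lowest wildtype value of 10.06, and its call was lost without any array other than DM 2 and DM 3. The decoy receptor Bambi fell more evenly (-0.80, SE 0.13, adjusted p = 0.00238). Fst, which binds activin, stood at a difference of -0.12 and was not called. Of 12 antagonists 4 fell and 0 rose by limma (2 at an unadjusted p of 0.05), and 2 fell without wildtype array 1, wildtype array 3 or DM array 1.

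Targets of BMP signalling were lower in part. Of 15 tested BMP and SMAD targets 5 fell and 1 rose, with a median of -0.27. Hey1, a repressor that both BMP and Notch signals induce, read 8.26, 8.47 and 8.55 in wildtype and 6.57, 5.97 and 6.25 in DM (-2.17, SE 0.15, adjusted p = 3.93e-05), about as low as on the Bmp15-/- arrays (6.48, 6.67 and 6.59). Id3, an inhibitor of basic helix-loop-helix factors, read 10.55, 10.60 and 10.65 and 9.34, 9.58 and 9.14 (-1.25, SE 0.11, adjusted p = 1.09e-04). Its Bmp15-/- values of 9.00, 9.08 and 9.01 lay below all 3 DM values, a difference DM minus Bmp15-/- of 0.32 that was not called (adjusted p = 0.144). Id2 fell further (-1.78, SE 0.36, adjusted p = 0.00653) and spread from 9.37 to 10.89 over the DM arrays. Id1 had a difference of -0.73 and was not called, and DM array 1 at 9.04 lay above wildtype array 2 at 8.90. The inhibitory Smad7, itself a target of the pathway, fell (-1.04, SE 0.18, adjusted p = 0.0031). In the other direction Ccn2, a matricellular protein that TGF-beta and YAP induce, rose from 11.62, 11.91 and 11.13 to 13.37, 13.38 and 13.50 (1.87, SE 0.17, adjusted p = 1.29e-04), and Tob1, an antiproliferative protein that binds SMADs, rose by 1.07. With the mean of probe sets Tob1 stood at 0.42 and was not called.

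The largest rises in DM were of a cytoskeletal protein, immediate early factors, a claudin, a channel subunit and a kinase, and signalling receptors and transcription factors followed. Pgm5, a relative of phosphoglucomutase that sits at cell adhesions, read 6.54, 5.61 and 5.47 in wildtype and 10.02, 10.56 and 10.97 in DM (4.64, SE 0.34, adjusted p = 4.38e-05). Kcnab1, a potassium channel subunit, read 6.16, 6.12 and 6.11 and 9.43, 9.77 and 9.91 (3.57, SE 0.21, adjusted p = 1.44e-05), and Gpr155 read 7.21, 5.78 and 6.67 and 10.17, 10.23 and 9.59 (3.44, SE 0.34, adjusted p = 1.97e-04). In all 3 Bmp15-/- stood between wildtype and DM or, for Pgm5, overlapped DM. Dapk1, a death-associated kinase, rose by 3.38, and Egr3, Cldn11, Nr4a3 and Bmp2 are given with their groups. Itih5, a heavy chain relative of the protein that crosslinks hyaluronan, read 8.92, 8.65 and 8.57 in wildtype and 11.59, 11.73 and 11.76 in DM (2.98, SE 0.28, adjusted p = 1.33e-04). Calcrl, the receptor that serves adrenomedullin and calcitonin gene-related peptide, read 7.49, 7.95 and 8.16 and 11.02, 10.86 and 9.90 (2.73, SE 0.32, adjusted p = 4.00e-04). Ptger4, a prostaglandin E2 receptor coupled to cyclic AMP, read 5.49, 4.74 and 6.56 and 8.53, 7.97 and 8.44 (2.72, SE 0.41, adjusted p = 0.00161). For these 3 genes, too, the DM arrays lay above every wildtype array, although wildtype ranged from 4.74 to 6.56 for Ptger4. Zbtb16, a transcriptional repressor, rose as well (2.59, SE 0.17, adjusted p = 3.76e-05), and its Bmp15-/- values of 9.38, 9.14 and 8.95 lay nearer the DM values of 9.81, 9.29 and 9.80 than the wildtype values of 6.87, 7.27 and 7.01. Tox (2.72, SE 0.29, adjusted p = 2.76e-04), Myf5 (2.94, SE 0.38, adjusted p = 7.01e-04) and the orphan receptor Nr0b1 (2.49, SE 0.25, adjusted p = 1.97e-04), a corepressor of steroidogenic factor 1, also rose. Igfbp5, a binding protein of insulin-like growth factors, rose at a high level from 8.13, 8.73 and 8.27 to 11.34, 10.40 and 11.11 (2.57, SE 0.32, adjusted p = 5.32e-04). The other rises of that rank were Gdpd2, Gdpd3, Mturn, Gabrb2, Klhl4, Coch, Igdcc4, Htra3 and Adgrl2, by 3.00 for Gdpd2 down to 2.44 for Adgrl2. Other probe sets of a gene can differ, and the sole other tested probe set of Egr3, and of Nr4a3, had the opposite sign without being called. For Zbtb16 1 of 2 other probe sets had the same sign.

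The largest falls were of oxidases, a respiratory subunit, secreted factors and adhesion molecules. Aox4, an aldehyde oxidase, read 9.64, 10.12 and 9.16 in wildtype and 5.67, 5.72 and 6.11 in DM (-3.81, SE 0.24, adjusted p = 2.61e-05). Cox4i2, the isoform of a cytochrome oxidase subunit that low oxygen induces, read 9.11, 9.40 and 9.14 and 5.39, 6.03 and 5.52 (-3.57, SE 0.16, adjusted p = 3.64e-06). Igfbp1, a binding protein of insulin-like growth factors, read 10.07, 9.60 and 9.82 and 5.96, 7.53 and 6.52 (-3.16, SE 0.34, adjusted p = 2.68e-04), with DM array 2 the least lowered. Bmp15-/- lay between wildtype and DM in each of these, at 7.45, 7.45 and 7.31 for Cox4i2. Tafa4, a secreted chemokine-like protein, fell by 3.08, and Ceacam10, Scd1, Lox and Slc16a3 are given with their groups. Gna14, a G protein alpha subunit of the Gq family, read 8.79, 9.12 and 8.77 in wildtype and 5.84, 5.68 and 6.11 in DM (-3.01, SE 0.14, adjusted p = 3.64e-06). Lgr6, a receptor for R-spondins, read 8.56, 8.59 and 8.28 and 5.50, 6.01 and 5.89 (-2.68, SE 0.14, adjusted p = 8.05e-06). In both genes the Bmp15-/- arrays were nearly as low, at 6.16, 6.25 and 6.06 and 6.38, 6.22 and 6.40. Crabp2, which carries retinoic acid to its receptor, was bright in wildtype at 11.61, 11.70 and 11.62 and read 9.30, 9.52 and 8.77 in DM (-2.44, SE 0.18, adjusted p = 4.89e-05). Ednrb, the endothelin receptor B, fell from between 9.76 and 10.07 on the wildtype arrays to 7.39, 8.26 and 7.04 (-2.38, SE 0.25, adjusted p = 2.68e-04), with DM array 2 the least changed. For Ednrb 1 of 2 other probe sets had the same sign. Tenm3, a teneurin, fell by 2.68 and the adaptor Pdlim4 fell by 2.84. Alas2, the erythroid enzyme of heme synthesis, fell from 7.28, 8.14 and 7.51 to 5.02, 5.37 and 4.78, along with a summed erythroid marker level of 6.80 to 6.98 in DM against 8.01 to 8.53 in wildtype, in which Alas2 is itself counted. Aldoc, an aldolase isoform and a cumulus marker, fell from 7.79, 7.96 and 7.85 to 4.92, 5.96 and 4.96 (-2.59, SE 0.24, adjusted p = 1.17e-04), with DM array 2 the least lowered. Pebp4, Prelid2, Kbtbd11, Ppp1r16b, Slfn4 and Tmem229b were also among the 25 largest falls, with differences from -2.95 for Pebp4 to -2.44 for Tmem229b.

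Genes that hypoxia-inducible factors (HIF) are known to switch on were lower in DM as a group. Of 41 tested HIF targets and pathway genes 29 fell and 1 rose, beside 18.2% of all genes that fell and 9.95% that rose, with a median of -0.84. The count of falls ran from 26 to 32 over 21 alternative settings. Besides enzymes of glycolysis, the group held transcripts with other roles. P4ha1 and P4ha2 encode the catalytic subunits of collagen prolyl hydroxylase: P4ha2 read 8.18, 8.61 and 8.34 in wildtype and 5.50, 6.37 and 5.80 in DM (-2.49, SE 0.21, adjusted p = 9.91e-05), and P4ha1 read 10.10, 10.04 and 10.07 and 8.63, 8.70 and 8.33 (-1.52, SE 0.11, adjusted p = 3.93e-05). All DM values of both lay under the Bmp15-/- values, and those under the wildtype values. Ak4, an adenylate kinase of the mitochondrial matrix, was among the brightest at 12.77, 12.83 and 12.79 and read 10.29, 10.83 and 10.28 in DM (-2.33, SE 0.17, adjusted p = 4.89e-05). For Ak4 2 of 3 other probe sets had the same sign. Bnip3, a receptor for the autophagy of mitochondria, read 11.87, 11.90 and 11.84 and 9.74, 10.18 and 9.58 (-2.04, SE 0.15, adjusted p = 4.38e-05). In each of these DM array 2 was the least lowered. Pdk1, the kinase that shuts pyruvate dehydrogenase, fell by 1.45. Egln1, the oxygen sensor that marks HIF for destruction and is itself a target, fell by 1.59, and the angiogenic factor Vegfa fell by 1.41. Stc1, a secreted glycoprotein, fell from 6.44, 7.78 and 7.51 to 4.74, 5.15 and 5.28 (-2.19, SE 0.30, adjusted p = 8.61e-04), where wildtype array 1 was the lowest wildtype array and DM lay near the dim range.

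The transcripts of the factors themselves moved little. Hif1a read 12.80, 12.89 and 12.90 in wildtype and 12.66, 12.58 and 12.62 in DM, a small fall (-0.24, SE 0.08, adjusted p = 0.0469) whose call was lost without any single array. Epas1, which encodes HIF-2alpha, and Arnt, the shared partner, had differences of 0.02 and 0.15 and were not called. Errfi1, a feedback inhibitor of the EGF receptor that is also held in the group, rose (0.76, SE 0.18, adjusted p = 0.0134). Of the 41 genes 19 were lower in Bmp15-/- than in wildtype, and 12 were lower in DM than in Bmp15-/-, beside 5.78% and 1.61% of all genes. These comparisons share the wildtype and the DM arrays, respectively, with DM against wildtype. On single arrays the group's median lay at -0.88, -0.79 and -0.92 in DM and -0.53, -0.50 and -0.46 in Bmp15-/- relative to the wildtype mean, with no overlap. The Gapdh 3' minus 5' difference stood in the same order, while the beta-actin ranges overlapped, as given above. Gapdh is itself in the glycolysis group, and the part of RNA length was not tested.

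**Figure D2:**
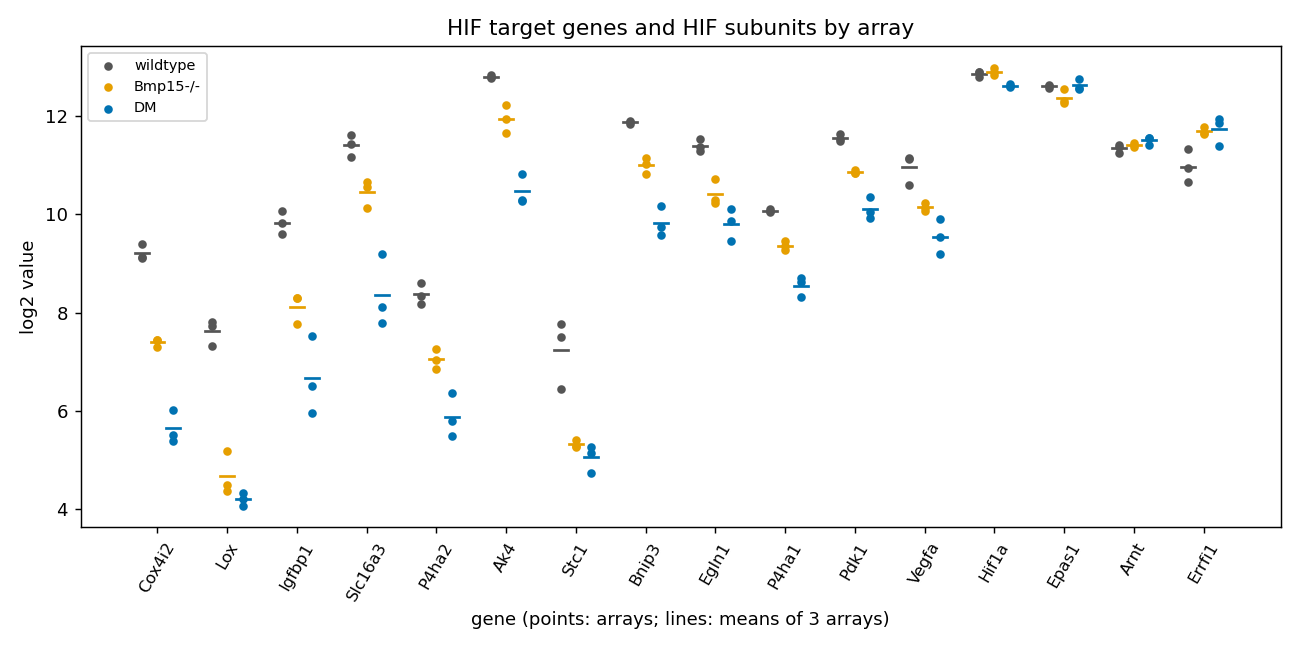
Log2 values on each array for 12 HIF targets that fell, for the subunit genes Hif1a, Epas1 and Arnt, and for Errfi1 (points are arrays, lines means of 3). For P4ha2 the 3 DM arrays sit at 5.50 to 6.37, below the Bmp15-/- arrays at 6.86 to 7.26, which sit below wildtype at 8.18 to 8.61, whereas for Hif1a, Epas1 and Arnt the groups lie close together.

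HIF binds the core letters ACGTG, and these letters were looked for on both strands in the 250 bases before the start of each gene, in RefSeq promoters of mouse build GRCm38.p6. Promoters were found for 10844 of the tested genes. ACGTG occurred in 15 of 34 promoters of the HIF group (44.1%), in 9 of 19 of the glycolysis group (47.4%) and in 2291 of all 10844 (21.1%). Among all genes lower in DM the share was 23.4% and among those higher 18.4%. With a further base, ACGTGC occurred in 13 of the 34 (38.2%) beside 6.58% of all. The palindrome CACGTG counts as a match on each strand. These shares describe letters, many of the genes were listed because such sites are known in them, and binding was not measured here. The upstream sequences of 3 genes that fell are shown because each has more than 1 match of the core over both strands. Matches are in capitals, and the letters run 5' to 3' along the gene's own strand.
Ldha, chr7:46845554-46845803, plus strand: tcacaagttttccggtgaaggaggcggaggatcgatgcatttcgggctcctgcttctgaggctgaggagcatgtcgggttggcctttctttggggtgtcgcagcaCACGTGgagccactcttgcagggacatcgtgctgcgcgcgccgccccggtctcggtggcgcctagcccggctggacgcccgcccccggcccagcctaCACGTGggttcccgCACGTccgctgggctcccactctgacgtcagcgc
Slc16a3, chr11:120948817-120949066, plus strand: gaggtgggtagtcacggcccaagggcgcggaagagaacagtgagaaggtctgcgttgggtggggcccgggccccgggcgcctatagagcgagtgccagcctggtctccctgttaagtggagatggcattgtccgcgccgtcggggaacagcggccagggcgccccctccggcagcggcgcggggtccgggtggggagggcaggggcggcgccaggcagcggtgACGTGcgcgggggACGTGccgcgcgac
Bnip3, chr7:138909507-138909756, minus strand: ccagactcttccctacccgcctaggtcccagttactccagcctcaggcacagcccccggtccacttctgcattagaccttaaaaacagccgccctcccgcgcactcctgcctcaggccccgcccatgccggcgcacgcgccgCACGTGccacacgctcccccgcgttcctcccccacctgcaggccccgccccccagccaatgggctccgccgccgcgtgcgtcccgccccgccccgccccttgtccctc
Ldha holds 5 matches, all within 145 bases of the start and 4 of them in a pair of CACGTG palindromes. Slc16a3, the lactate exporter, holds 2 matches at 27 and 14 bases before the start, and Bnip3 holds 1 palindrome, counted as 2 matches.

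Transcripts for making and exporting lactate fell in DM, while those around pyruvate dehydrogenase, the gate of pyruvate into the mitochondrial cycle, divided. Of 20 genes of glycolysis and lactate transport 14 fell and Ldhb alone rose, with a median of -1.15. Several of these genes (Slc16a3, Ldha, Pfkfb3, Hk2, Slc2a1 and Pfkfb4) are also in the HIF group, so both counts rest in part on the same transcripts. Ldha, which turns pyruvate into lactate, read 12.74, 12.82 and 12.70 in wildtype and 10.83, 11.12 and 10.93 in DM (-1.79, SE 0.10, adjusted p = 1.11e-05). Ldhb, the subunit that favours the reverse reaction, read 10.59, 10.58 and 10.43 and 11.93, 11.67 and 11.91 (1.31, SE 0.17, adjusted p = 7.65e-04). The groups stood apart in both genes, and on the Bmp15-/- arrays Ldhb spread from 10.66 to 11.42 between them. Slc16a3 read 11.16, 11.62 and 11.44 in wildtype and 8.12, 9.19 and 7.79 in DM (-3.04, SE 0.32, adjusted p = 2.40e-04), the largest fall of the group, with 9.19 on DM array 2 against 8.12 and 7.79 on the others. Pkm, pyruvate kinase, was bright at 12.20, 12.26 and 12.16 and read 10.68, 10.85 and 10.55 in DM (-1.51, SE 0.10, adjusted p = 3.76e-05). The glucose transporter Slc2a3 had a difference of -1.04 and was not called, and DM array 2 at 6.67 lay above wildtype array 1 at 6.56.

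In the tricarboxylic acid group 5 of 31 genes rose and 9 fell, with a median of -0.08 beside -0.06 over all genes. The rises were Pdp1, Pdk4, Pck2, Pdha1 and Idh3b. Pdp1, the phosphatase that switches pyruvate dehydrogenase on, read 7.11, 7.16 and 7.14 in wildtype and 8.75, 8.09 and 8.58 in DM (1.34, SE 0.16, adjusted p = 4.26e-04). Pdk4, a kinase that switches the same enzyme off, was bright at 12.51, 12.29 and 12.41 and rose to 13.42, 13.43 and 13.30 (0.98, SE 0.09, adjusted p = 1.09e-04). Pdk1, of the same kinase family, fell, as given above. Pdha1, the enzyme's E1 alpha subunit, rose by 0.76, although its other probe set had the opposite sign. Pck2, mitochondrial phosphoenolpyruvate carboxykinase, rose by 0.93. Citrate synthase (Cs, -0.44), Dld (-0.81) and Pdhx (-0.72) were among the falls. The 9 falls became 5 without wildtype array 1, 2 or 3 and 4 without DM array 1, while the count of rises ran from 5 to 7 over the alternatives.

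Transcripts for sterol synthesis fell down the pathway and at part of its controls, and those for fat synthesis fell in part. Of 17 enzymes of cholesterol synthesis 16 fell (15 to 17 over the alternatives), with a median of -1.33 that ran from -0.98 to -1.45, and the 3 DM arrays stood at -1.30, -1.03 and -1.45 relative to the wildtype mean. Among them were Tm7sf2, a sterol reductase (-1.83), Mvd of the mevalonate steps (-1.67), Lss, which closes the sterol rings (-1.65), and Sqle, squalene epoxidase (-1.57). Srebf2, the transcription factor that drives these enzymes, read 10.95, 11.25 and 11.06 in wildtype and 10.29, 10.21 and 9.95 in DM (-0.93, SE 0.11, adjusted p = 4.88e-04), and Scap, which escorts it, fell by 0.85. Insig1, which holds Scap back when sterols are plentiful, was not called and read 13.08, 13.06 and 13.06 in wildtype and 12.97, 12.93 and 12.94 in DM, a difference of -0.12 with no overlap. Stard4, a carrier of cholesterol inside the cell, fell from 9.43, 9.43 and 9.59 to 7.81, 7.84 and 7.21 (-1.87, SE 0.15, adjusted p = 8.53e-05).

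In the group of sterol uptake, export and control 7 of 18 genes fell, as many as under each of the 21 alternatives, and 2 rose. The lipoprotein receptors Vldlr (-1.60, SE 0.15, adjusted p = 1.57e-04) and Lrp8 (-1.43, SE 0.14, adjusted p = 1.46e-04) fell, as did Scarb1, which takes up cholesterol from high-density lipoprotein (-0.90, SE 0.10, adjusted p = 3.12e-04). Abca1, which exports cholesterol, read 7.92, 7.92 and 8.05 in wildtype and 8.88, 8.71 and 9.05 in DM (0.92, SE 0.10, adjusted p = 2.74e-04). Mylip, the ligase that degrades lipoprotein receptors, rose (1.04, SE 0.32, adjusted p = 0.0368), a call lost without wildtype array 2 or 3, Bmp15-/- array 3 or any DM array. In fatty acid synthesis 9 of 22 fell and 1 rose. Scd1, the desaturase that makes oleate, fell from 11.38, 11.43 and 11.55 to 8.13, 8.48 and 6.72 (-3.67, SE 0.36, adjusted p = 1.73e-04), and DM array 3 was the lowest. Fads2 (-1.56, SE 0.13, adjusted p = 1.01e-04) and Acss2 (-1.48, SE 0.24, adjusted p = 0.00235), which activates acetate, fell as well. Fasn and Acaca, the core of the pathway, had differences of -0.24 and -0.24 and were not called.

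CCAAT, the box bound by NF-Y, occurred on either strand of 13 of 14 upstream regions of the cholesterol group (92.9%) and of 35.9% of all genes. The sterol element in the form TCACNCCAC occurred in 1 of the 14 (7.14%) beside 1.01% of all. Msmo1, the sterol C4-methyl oxidase that fell by 1.53, holds 3 boxes, in capitals, and is shown for them.
Msmo1, chr8:64733579-64733828, minus strand: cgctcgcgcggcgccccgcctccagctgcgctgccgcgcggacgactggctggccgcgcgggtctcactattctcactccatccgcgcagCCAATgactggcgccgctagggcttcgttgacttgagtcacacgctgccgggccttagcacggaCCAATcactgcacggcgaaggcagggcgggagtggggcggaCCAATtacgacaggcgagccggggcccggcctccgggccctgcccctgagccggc

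Amino acid transport changed transporter by transporter. Of 25 transporters 9 fell and 3 rose, beside 18.2% and 9.95% of all genes. Slc6a9, the glycine transporter GLYT1, was bright in wildtype at 12.10, 12.24 and 12.00 and read 10.13, 10.59 and 10.59 in DM (-1.67, SE 0.18, adjusted p = 2.87e-04). Slc38a4 fell from 8.58, 8.82 and 9.04 to 8.05, 6.17 and 6.37 (-1.95, SE 0.42, adjusted p = 0.00791), with DM array 1 above and DM arrays 2 and 3 below the Bmp15-/- values of 7.33, 7.04 and 7.61. Slc38a3, which carries alanine and other amino acids that the oocyte takes up through cumulus cells, was higher in DM, at 9.07, 8.74 and 8.47 against 7.63, 7.45 and 7.49 (1.24, SE 0.19, adjusted p = 0.00161), although its other probe set had the opposite sign. It did not differ detectably between Bmp15-/- and wildtype (0.11), and DM exceeded Bmp15-/- by 1.13 (adjusted p = 0.0168). The large neutral transporter Slc7a5, with a difference of 0.06, and its partner Slc3a2, with 0.20, were not called.

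**Figure D3:**
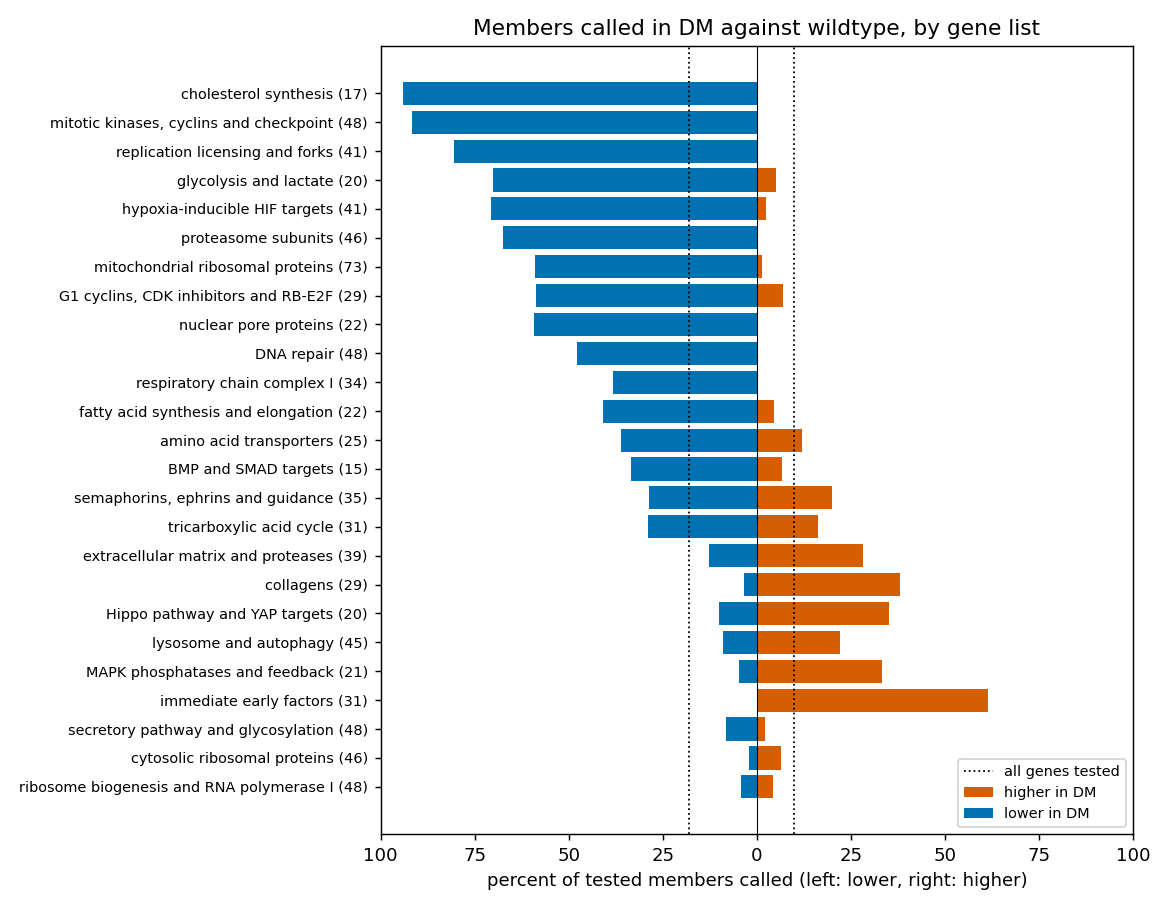
Share of tested members called lower (left, blue) and higher (right, orange) in DM against wildtype for 25 gene groups, with the number tested in brackets. The dotted lines mark the shares over all genes tested, 18.2% lower and 9.95% higher, and cholesterol synthesis, mitosis and replication reach furthest left while immediate early factors reach furthest right.

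Genes of cell division fell together in DM, and hardly any rose. Of 48 genes of mitosis 44 fell, of 41 of replication 33 fell and of 48 of DNA repair 23 fell, with 0 rising in each by limma (0, 0 and 1 at an unadjusted p of 0.05), and medians of -0.72, -0.67 and -0.43. The counts of falls ran from 39 to 47, 25 to 36 and 18 to 28 over the alternatives. Pole2, a subunit of the leading-strand polymerase, read 8.12, 8.29 and 8.16 in wildtype and 6.68, 7.01 and 6.39 in DM (-1.50, SE 0.14, adjusted p = 1.53e-04). Rpa3 (-1.31), Mcm3 (-1.05) and Orc6 (-1.01), which load and protect replication forks, fell. Kif11, the kinesin that separates spindle poles, read 9.57, 9.65 and 9.59 and 8.12, 8.81 and 7.70 (-1.39, SE 0.22, adjusted p = 0.00215). Cyclin B2, Ccnb2, read 10.24, 10.15 and 10.12 and 9.14, 9.82 and 8.92 (-0.87, SE 0.19, adjusted p = 0.00919). DM array 2 was the least changed in the 3 genes given by array, and its 9.82 for Ccnb2 was just under the lowest wildtype value of 10.12. The group medians tell the same, at -0.80, -0.43 and -0.85 on DM arrays 1 to 3 for mitosis and -0.77, -0.38 and -0.74 for replication. Cenpa fell by 1.32 and Mcm6 fell by 0.73, but another probe set of each was opposed at an unadjusted p under 0.05, and Mcm6 read from its probe set of highest SD stood at 1.03. Mcm4, the brightest gene of the replication group, was not called and read 12.71, 12.84 and 12.81 in wildtype and 12.61, 12.78 and 13.00 in DM.

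At the step into S phase 17 of 29 genes fell and 2 rose, and 11 fell without wildtype array 2. The transcription factors E2f2 (-1.11, SE 0.24, adjusted p = 0.00823) and E2f1 (-0.92, SE 0.25, adjusted p = 0.0214) fell, and so did their restrainers Rb1 (-0.97, SE 0.13, adjusted p = 8.10e-04) and Rbl1 (-0.67). Ccne2, a cyclin of this step, fell by 1.11, and Ccnd2, the cyclin that granulosa cells use to proliferate, fell by 0.43. E2f1 lost its call without wildtype array 1 or 2 or DM array 1 or 3, and Ccnd2 without wildtype array 2 or 3 or DM array 1. Cdkn1a, the p21 inhibitor of cyclin-dependent kinases, rose from 7.26, 7.10 and 7.65 to 8.96, 7.94 and 7.77 (0.89, SE 0.28, adjusted p = 0.0402), with most of the rise on DM array 1. Its other probe set had the opposite sign, and its call was lost without wildtype array 1 or 2, any Bmp15-/- array or DM array 1. Cdkn1b, the p27 inhibitor, differed by 0.10 and was not called. In DNA repair, Rad54b (-1.39, SE 0.18, adjusted p = 7.74e-04) and Fanca (-1.18, SE 0.15, adjusted p = 6.58e-04), which act in homologous recombination and crosslink repair, had large falls. The checkpoint kinases Atm and Chek2 had differences of -0.12 and 0.00 and were not called. Of 8 histone genes 0 were called by limma and 1 passed an unadjusted p of 0.05.

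Letters known for cell cycle factors were counted in the same upstream regions. CCAAT occurred in 27 of 39 mitotic (69.2%) and 22 of 33 replication promoters (66.7%). E2F letters, in the forms TTTCCCGC, TTTCGCGC, TTTGCCGC and TTTGGCGC on either strand, occurred in 8 of 33 replication promoters (24.2%), 1 of 39 mitotic ones and 3.33% of all. The cell cycle homology element TTTGAA occurred in 12 of 39 mitotic promoters (30.8%) and 10.7% of all. Ccnb2 is shown for its 3 CCAAT boxes and Rfc3, a subunit of the clamp loader that fell by 0.96, for its E2F letters, each in capitals.
Ccnb2, chr9:70421555-70421804, minus strand: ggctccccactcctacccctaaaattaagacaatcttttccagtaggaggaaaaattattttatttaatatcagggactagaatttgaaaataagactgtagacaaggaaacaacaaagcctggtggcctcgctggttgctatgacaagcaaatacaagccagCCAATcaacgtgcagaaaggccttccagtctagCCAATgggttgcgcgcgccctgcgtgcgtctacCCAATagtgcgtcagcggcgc
Rfc3, chr5:151651209-151651458, minus strand: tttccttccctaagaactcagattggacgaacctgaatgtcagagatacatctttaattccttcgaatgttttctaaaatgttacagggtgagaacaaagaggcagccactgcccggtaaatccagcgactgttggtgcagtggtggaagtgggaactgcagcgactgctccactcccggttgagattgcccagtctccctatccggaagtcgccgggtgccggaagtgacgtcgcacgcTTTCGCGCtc

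Protein turnover and mitochondrial machinery fell by small amounts across many subunits, whereas the cytosolic ribosome did not. Of 46 proteasome genes 31 fell and 0 rose by limma, or 36 and 0 at an unadjusted p of 0.05 (median -0.42), of 73 mitochondrial ribosomal proteins 43 fell and 1 rose (-0.37), of 34 subunits of respiratory complex I 13 fell (-0.31) and of 22 nuclear pore proteins 13 fell (-0.39). Of 46 cytosolic ribosomal proteins 1 fell and 3 rose, with a median of 0.05, and the 3 rises became 0 without wildtype array 1, 1 without wildtype array 3 or DM array 1 or 2, and 5 without DM array 3. Psmd1, a scaffold of the proteasome cap, read 10.55, 10.77 and 10.50 in wildtype and 9.98, 9.91 and 9.65 in DM (-0.76, SE 0.11, adjusted p = 0.0012). Psmb9, an immunoproteasome subunit, fell from 7.27, 6.82 and 7.30 to 5.96, 6.20 and 5.57 (-1.22, SE 0.20, adjusted p = 0.00209). Ndufb8 of complex I read 10.69, 10.62 and 10.54 and 9.96, 10.26 and 9.88 (-0.59, SE 0.11, adjusted p = 0.00367), with DM array 2 the nearest to wildtype. Proteasome falls numbered 25 to 33 over the alternatives. Those of the mitochondrial ribosome became 28, 22, 26 and 27 without wildtype array 1, wildtype array 2, DM array 1 and DM array 3, and those of complex I 7, 7 and 8 without wildtype arrays 1 and 2 and DM array 1. Ribosome biogenesis, with 2 of 48 higher and 2 lower, and the secretory pathway, with 1 of 48 higher and 4 lower, had few calls. The 4 became 2 without any single wildtype array or DM array 1 or 3, and 7 without DM array 2.

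Immediate early genes, which cells switch on within minutes of a growth or stress signal, were higher in DM. Of 31 tested members 19 rose and 0 fell by limma (24 and 0 at an unadjusted p of 0.05), with a median of 0.97, and the count of rises ran from 17 to 23 over the alternatives. Egr3 read 6.43, 4.33 and 5.09 in wildtype and 10.33, 9.02 and 10.40 in DM (4.63, SE 0.51, adjusted p = 3.27e-04). Nr4a3 read 5.26, 4.51 and 6.98 and 10.39, 7.42 and 8.90 (3.32, SE 0.75, adjusted p = 0.0103), and DM array 2 at 7.42 lay just above wildtype array 3 at 6.98. Egr2 read 11.74, 9.90 and 10.98 and 13.17, 12.77 and 12.96 (2.09, SE 0.36, adjusted p = 0.00306). Wildtype array 2 was the lowest for each of these, and the group's median stood at 0.27, -0.51 and 0.12 on wildtype arrays 1 to 3 against 1.31, 0.77 and 1.16 in DM. Klf4 (1.61, SE 0.39, adjusted p = 0.0141), Srf (1.38, SE 0.24, adjusted p = 0.00274), Btg2 (1.58, SE 0.34, adjusted p = 0.00875) and Zfp36, which destabilises cytokine messages (1.62, SE 0.34, adjusted p = 0.00746), rose. Fos was already among the brightest genes in wildtype at 13.73, 13.32 and 13.68 and was not called (0.30).

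Feedback inhibitors of mitogen-activated protein kinase (MAPK) signalling rose beside them, 7 of 21 with 1 fall, Rgs3, and 4 rose without wildtype array 1. Dusp6, the phosphatase of ERK kinases, read 8.63, 6.86 and 8.35 in wildtype and 10.24, 9.59 and 10.34 in DM (2.11, SE 0.40, adjusted p = 0.00482). Spry2 (0.73, SE 0.14, adjusted p = 0.0043) and Dusp5 (0.91, SE 0.20, adjusted p = 0.00939) rose. Dusp10, which acts on the stress kinases, was not called in DM (-0.40). Bmp15-/- had 10 of the 31 immediate early genes and 5 of the 21 feedback genes higher than wildtype, beside 3.29% of all genes, and 0 of either differed between DM and Bmp15-/- by limma (5 and 2 at an unadjusted p of 0.05). The medians of DM minus Bmp15-/- were 0.10 and 0.02.

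The core TGACG of the cyclic AMP response element occurred in 15 of 24 upstream regions of immediate early genes (62.5%) and 26.2% of all. The CArG box, bound by SRF, occurred in 2 of the 24 (8.33%) and 1.21% of all, in 2.55% of all genes higher in DM and 1.04% of those lower. Nr4a3 is shown for 4 matches of TGACG, in capitals, that lie 231 to 147 bases before the start.
Nr4a3, chr4:48045055-48045304, plus strand: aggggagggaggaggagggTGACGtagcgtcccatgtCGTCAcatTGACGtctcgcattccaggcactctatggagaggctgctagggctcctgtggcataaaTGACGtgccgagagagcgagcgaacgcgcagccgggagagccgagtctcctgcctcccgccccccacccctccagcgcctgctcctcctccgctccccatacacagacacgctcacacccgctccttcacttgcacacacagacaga

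**Figure D4:**
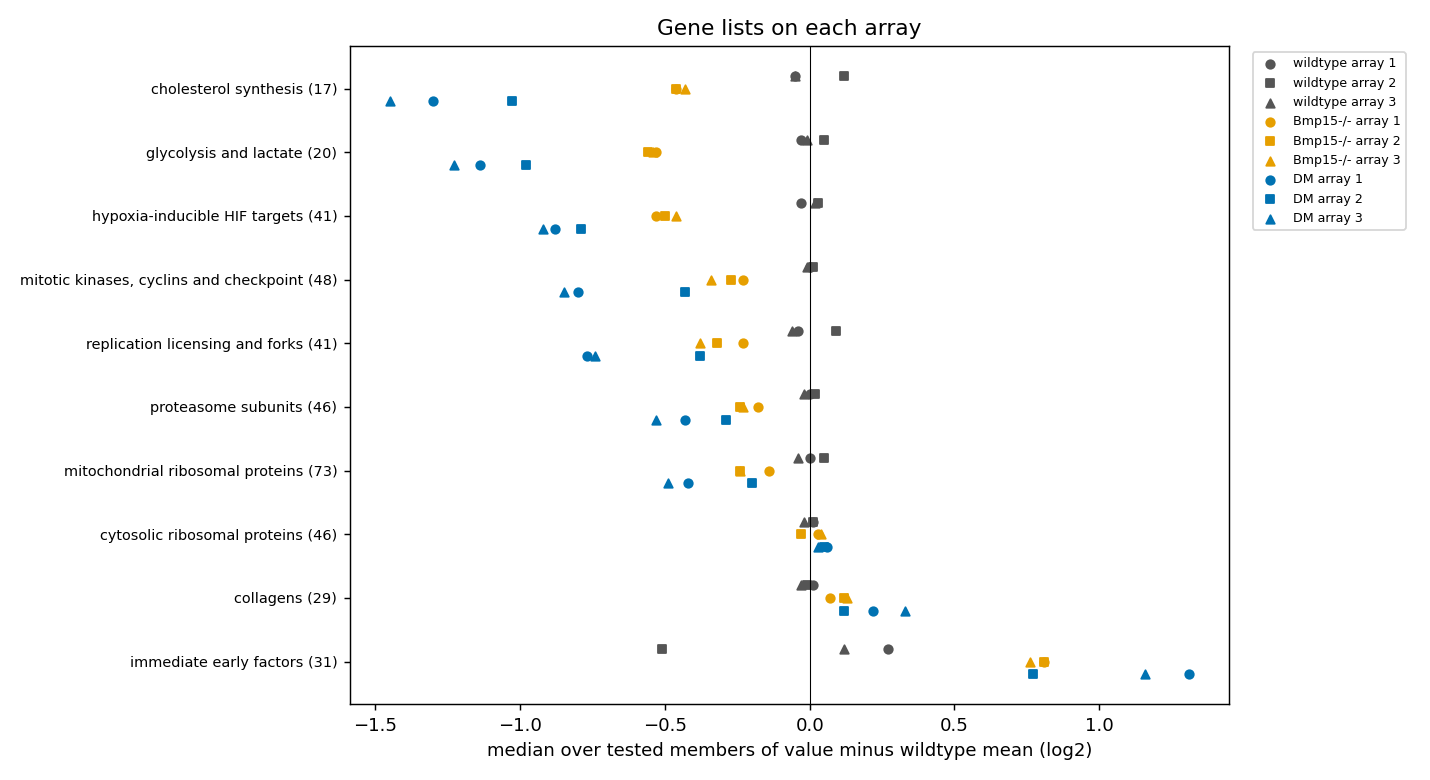
Median over the tested members of each of 10 gene groups of the value minus the wildtype mean (log2), for each of the 9 arrays. DM arrays lie farthest from 0 in the cholesterol, glycolysis and HIF groups, with Bmp15-/- arrays between, and in the immediate early group the Bmp15-/- arrays at 0.76 to 0.81 overlap the DM arrays at 0.77 to 1.31.

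Matrix genes and targets of the co-activator YAP rose in part. Of 29 collagens 11 rose and 1 fell (median 0.21), of 39 matrix proteins and proteases 11 rose and 5 fell (0.10), and of 20 genes of the Hippo pathway and its YAP targets 7 rose and 2 fell (0.02). Col11a1, a fibrillar collagen, read 6.47, 6.09 and 6.35 in wildtype and 7.64, 8.74 and 8.46 in DM (1.98, SE 0.27, adjusted p = 9.58e-04). Col6a3 read 6.36, 5.89 and 5.79 and 7.81, 7.67 and 7.24 (1.56, SE 0.18, adjusted p = 3.53e-04), whereas Col6a1 of the same collagen VI fell from 8.75, 7.62 and 8.48 to 6.54, 6.96 and 6.62 (-1.58, SE 0.28, adjusted p = 0.00356). The groups did not overlap in any of these collagens. Under a stricter filter on dim genes 7 collagens rose, and without that filter 7 rose without wildtype array 1 and 6 without DM array 1. Theca and stroma markers, which include collagens, were also summed higher in DM, as given above, and Pdgfra of that list read 7.43, 8.03 and 7.44 in wildtype and 9.25, 8.88 and 9.47 in DM (1.57, SE 0.19, adjusted p = 5.03e-04). Its defining members Col3a1, Lhx9 and Gli1 had differences of 0.05, -0.11 and -0.13 and were not called.

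The proteases and crosslinkers divided. Lox, lysyl oxidase, read 7.73, 7.33 and 7.81 in wildtype and 4.08, 4.22 and 4.34 in DM (-3.41, SE 0.21, adjusted p = 1.92e-05), and its relative Loxl1 fell too (-1.61, SE 0.26, adjusted p = 0.00206). Adamts9 fell from 10.97, 11.08 and 10.95 to 9.07, 9.21 and 9.16 (-1.86, SE 0.09, adjusted p = 5.22e-06). The gelatinase Mmp2 (1.48, SE 0.23, adjusted p = 0.00176), its inhibitor Timp2 (1.52, SE 0.16, adjusted p = 2.24e-04) and Adamts5 (0.99, SE 0.17, adjusted p = 0.00314) rose. Of the matrix group 4, 6 and 5 genes rose without wildtype array 2, wildtype array 3 and DM array 1, and its 5 falls became 3 without wildtype array 1 or 3, Bmp15-/- array 2 or 3, or DM array 1. Among YAP targets Amotl2 read 8.31, 8.25 and 8.76 and 10.67, 9.98 and 10.42 (1.92, SE 0.19, adjusted p = 1.69e-04), and Ajuba 7.32, 7.35 and 7.77 and 8.74, 9.06 and 8.90 (1.42, SE 0.13, adjusted p = 1.46e-04). Ankrd1, another target, had a difference of -0.13 and was not called, and Yap1 itself stood at -0.15. Of 25 genes of the actin cytoskeleton and the projections that reach the oocyte 7 rose and 6 fell. Those falls became 2 without wildtype array 1 or 2 or DM array 1, and 3 without wildtype array 3 or DM array 3. Acta2, smooth muscle actin, rose from 5.45, 5.92 and 5.39 to 7.74, 7.47 and 7.82 (2.09, SE 0.19, adjusted p = 1.17e-04), and Vcl, vinculin, by 0.88. The formin Daam2 fell by 1.14, and Fscn1 and Myo10, which build filopodia, were not called (0.24 and -0.18). Acta2 is also 1 of the 9 smooth muscle and pericyte markers given above, of which 1 rose and 1 fell.

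Of 10 tested genes of cumulus expansion 4 rose and 2 fell, with a median of 0.41 beside -0.06 over all genes. The group's median stood at 0.67, 0.44 and 0.10 on DM arrays 1 to 3 and at 0.04, -0.05 and 0.05 on the wildtype arrays, relative to the wildtype mean. Has2, the hyaluronan synthase, read 6.43, 6.20 and 5.65 in wildtype and 5.17, 5.11 and 4.28 in DM (-1.24, SE 0.32, adjusted p = 0.0185), which puts DM near the dim range. Ptgs2, the prostaglandin synthase of the expansion response, read 6.95, 6.56 and 7.98 in wildtype and 9.34, 8.13 and 8.07 in DM (1.35, SE 0.43, adjusted p = 0.0424), and DM arrays 2 and 3 at 8.13 and 8.07 stood close to wildtype array 3 at 7.98. The call of Ptgs2 was lost without wildtype array 1 or 2, Bmp15-/- array 1 or 3, or DM array 1, and that of Has2 without wildtype array 1 or 2 or DM array 3. Tnfaip6, which links hyaluronan chains, was not called and overlapped, at 8.05, 6.65 and 7.40 and 8.38, 8.19 and 7.41. One gene of the set rose without wildtype array 2 or DM array 1, in place of 4. Egfr, the receptor of the ovulatory EGF-like signal, read 10.84, 10.78 and 10.76 and 8.43, 8.74 and 8.49 (-2.24, SE 0.10, adjusted p = 3.64e-06). Hbegf, a ligand of that receptor, rose from 6.83, 6.63 and 6.88 to 9.27, 8.61 and 8.09 (1.87, SE 0.25, adjusted p = 8.39e-04), and the related receptor Erbb3 rose by 0.87, a call lost without wildtype array 1 or 2 or DM array 1. The complexes were taken before an ovulatory signal, and Btc and Tgfa, other ligands, were not called.

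Junctions with the oocyte, meiotic arrest and steroid synthesis showed single strong changes. Cldn11, a tight junction claudin, read 4.67, 3.68 and 3.18 in wildtype, below the 40th percentile, and 7.32, 7.57 and 8.71 in DM (4.02, SE 0.45, adjusted p = 3.52e-04). Kitl, the ligand of the oocyte's KIT receptor, fell from 9.50, 9.68 and 9.63 to 8.54, 7.49 and 8.85 (-1.31, SE 0.28, adjusted p = 0.00848). The gap junction genes Gja1, at a difference of 0.03, and Gja4, at -0.20, were not called. Npr2, the receptor that makes the cyclic GMP holding the oocyte in arrest, fell by 0.46, and Esr1, an estrogen receptor, from 10.48, 10.39 and 10.18 to 8.58, 8.94 and 8.47 (-1.69, SE 0.14, adjusted p = 8.53e-05). Nppc, the ligand of Npr2, was not called (-0.48). Of 17 genes of steroidogenesis and gonadotropin reception 6 fell and 3 rose. The transcription factors Gata4 (-0.96, SE 0.10, adjusted p = 2.80e-04), Nr5a1 (-0.85), Foxl2 (-0.78) and Cebpa (-1.20) fell, Hsd17b1, which makes estradiol, fell by 0.81, and Hsd3b1, which makes progesterone, rose from 12.30, 12.14 and 12.51 to 13.36, 13.36 and 12.96 (0.91, SE 0.13, adjusted p = 0.00121). Fshr differed by -0.31 and Star by 0.24, and neither was called. Wt1, a factor of immature granulosa cells that is also a surface epithelium marker, rose from 9.16, 9.17 and 8.39 to 10.88, 10.99 and 11.72 (2.29, SE 0.28, adjusted p = 5.39e-04).

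Guidance and short-range signalling genes moved in both directions. Of 35 semaphorins, ephrins and guidance genes 7 rose and 10 fell. Sema4d, a transmembrane semaphorin, was bright at 11.23, 11.06 and 11.16 and read 8.62, 8.97 and 8.76 in DM (-2.37, SE 0.10, adjusted p = 3.64e-06). Sema3a, a secreted one, read 7.84, 7.90 and 7.35 and 5.19, 5.90 and 4.70 (-2.44, SE 0.29, adjusted p = 4.35e-04), while the semaphorin receptor Nrp2 rose from 5.74, 6.15 and 6.26 to 8.18, 7.45 and 7.79 (1.76, SE 0.28, adjusted p = 0.002). In Hedgehog signalling 6 of 13 fell and 2 rose. The granulosa ligands Dhh (-0.82) and Ihh (-0.59) fell, the latter a call lost without any single wildtype array or DM array 1, and the co-receptor Boc fell from 9.49, 9.19 and 10.08 to 8.05, 8.12 and 7.74 (-1.62, SE 0.20, adjusted p = 5.97e-04). Gli3 (1.27, SE 0.21, adjusted p = 0.00235) and Ptch1, a receptor and target (0.57, SE 0.10, adjusted p = 0.00371), rose, although the other probe set of Ptch1 had the opposite sign. In Notch signalling 4 of 19 fell and 2 rose, shares near those of all genes, among the falls them the effectors Hey1, Heyl (-1.56, SE 0.18, adjusted p = 4.00e-04) and Hey2 (-0.66), while the receptors Notch1 and Notch2 were not called (0.16 and -0.01). In the insulin-like growth factor system Igf1 fell by 0.80, and the receptor Insr rose from 7.58, 7.75 and 7.88 to 8.90, 8.71 and 8.84 (1.08, SE 0.11, adjusted p = 2.24e-04). With the mean of probe sets Insr stood at 0.31 and was not called.

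DM differed from Bmp15-/- in 437 genes, 3.25% of those tested, of which 221 were higher in DM (1.64%) and 216 lower (1.61%). This comparison shares its DM arrays with the one above. Energy and sterol genes were among the lower ones: 13 of 20 glycolysis genes, 7 of 17 cholesterol genes and 12 of 41 HIF genes were lower in DM than in Bmp15-/-. Epha4, an ephrin receptor, read 7.81, 8.23 and 8.15 on the DM arrays against 10.23, 9.64 and 9.76 in Bmp15-/- (DM minus Bmp15-/- -1.81, SE 0.17, adjusted p = 0.00343), and wildtype at 10.24, 10.20 and 10.47 lay next to Bmp15-/-. Ceacam10, an adhesion molecule, read 9.63, 9.59 and 9.10 in Bmp15-/- and 7.46, 7.37 and 5.61 in DM (-2.63, SE 0.42, adjusted p = 0.0139), below wildtype at 10.55, 10.83 and 10.53, with a difference of Bmp15-/- from wildtype of -1.20 that was not called. Boc (-1.49), Kbtbd11 (-1.58) and Slc16a3 (-2.09) were likewise lower in DM than in Bmp15-/-, with differences of Bmp15-/- from wildtype of -0.13, -0.97 and -0.96 that were not called.

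Some genes were lowest in Bmp15-/- and near or above the wildtype level in DM. Cadps, which primes secretory vesicles, read 5.64, 4.08 and 4.29 in Bmp15-/-, against 7.32, 7.36 and 7.47 in wildtype and 9.00, 9.62 and 9.10 in DM, a difference DM minus Bmp15-/- of 4.57, SE 0.35, adjusted p = 0.00104. It was above wildtype in DM (1.86, SE 0.35, adjusted p = 0.00444) and below wildtype in Bmp15-/- (-2.71, adjusted p = 0.00324). Galc, a lysosomal galactosidase of sphingolipids, stood at 6.64, 6.20 and 6.74 in Bmp15-/-, under wildtype at 8.28, 8.49 and 8.70 and DM at 8.14, 8.60 and 8.28 (1.81, SE 0.17, adjusted p = 0.00343), with DM not called against wildtype (-0.15). Gucy1a1, a subunit of soluble guanylate cyclase, stood at 8.28, 6.68 and 7.53 in Bmp15-/-, under wildtype at 9.78, 9.71 and 9.61 and DM at 9.57, 8.99 and 9.55 (1.87, SE 0.33, adjusted p = 0.0223), with DM just below every wildtype array (-0.33, not called) and its other probe set of the opposite sign in that comparison. Zfp40 showed the pattern as well (2.16, SE 0.36, adjusted p = 0.0168). Of 278 tested Zfp zinc finger genes 44 were lower in Bmp15-/- than in wildtype, beside 5.78% of all genes. In DM against Bmp15-/- 12 were higher and 0 lower by limma (13 lower at an unadjusted p of 0.05), beside 1.64% and 1.61%. These comparisons share the Bmp15-/- arrays, so low readings on those arrays raise both counts. In DM against wildtype 42 of the 278 fell and 15 rose, beside 18.2% and 9.95% of all genes. The falls became 25, 25, 24 and 26 without wildtype array 1, 2 or 3 or DM array 1, and the rises 7 without wildtype array 2. Dapk1 and Klhl4 also exceeded Bmp15-/-, by 1.78 and 1.90, but their differences of Bmp15-/- from wildtype were above 0 (1.60 and 0.62). Rbms3, an RNA-binding protein, read 9.80, 9.28 and 9.74 in DM and 7.98, 7.30 and 7.98 in Bmp15-/- (1.85, SE 0.25, adjusted p = 0.00795), with wildtype at 7.95, 7.24 and 7.24 overlapping Bmp15-/-. Grik3 differed by 1.94 and had another probe set opposed at an unadjusted p under 0.05. The 437 calls became 922 without DM array 2, and 105 to 278 when 1 of the arrays wildtype 1, 2 or 3, Bmp15-/- 1 or 2, or DM 1 or 3 was left out.

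**Figure D5:**
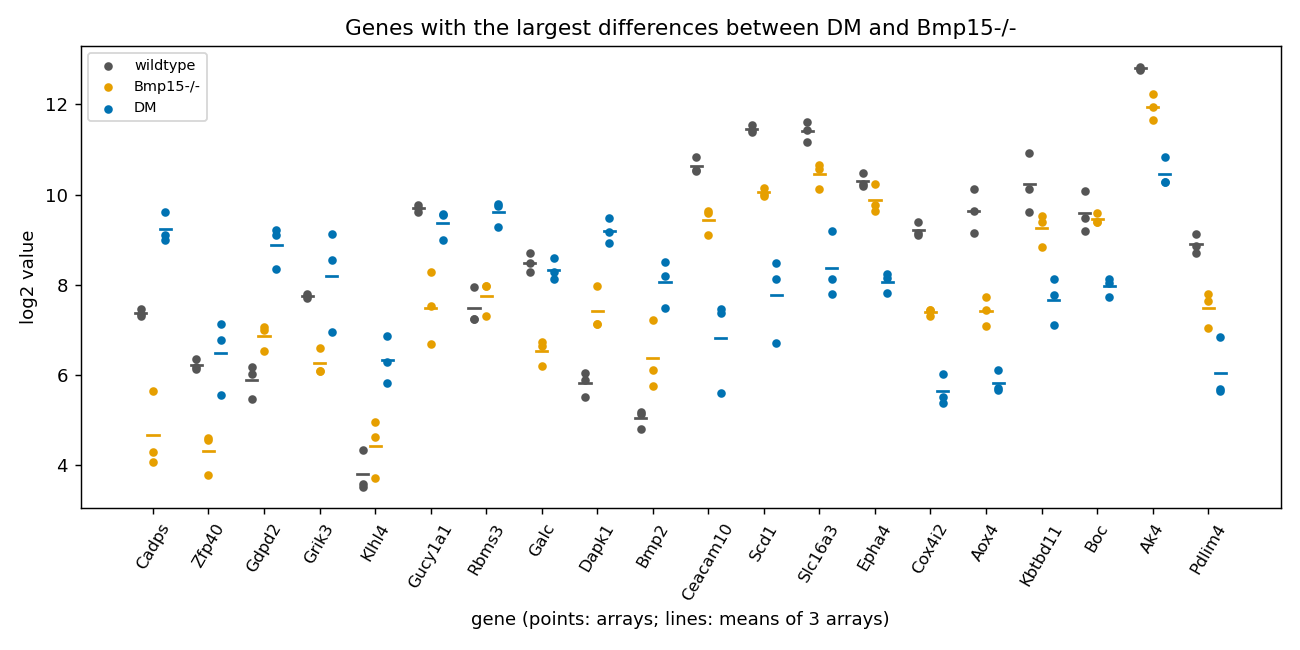
Log2 values on each array for the 20 genes with the largest differences between DM and Bmp15-/-, the 10 higher in DM at the left and the 10 lower at the right (points are arrays, lines means of 3). Cadps, Zfp40, Grik3, Gucy1a1 and Galc have their lowest values in Bmp15-/-, while Ceacam10 to Pdlim4 are lowest in DM.

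Detection and position were read last. On all 3 DM arrays 59 genes were above the 40th percentile that were below it on all 3 wildtype arrays, and 47 of these were called; Cldn11, Klhl4, Sla, Frmd4b, Col5a2 and Glis3 are among them. The reverse held for 48 genes, 35 of them called, among them Lox, Slit3, Hoxd11, Oprl1 and Nrsn1. Both sets were chosen by DM and wildtype lying on opposite sides of the cut. A share of calls above the 28.1% of all genes follows from that choice and is no result. The cut is also that of the filter, and Klhl4 passed it on its DM arrays alone. The nearest tested genes in chromosome order, up to 50 on each side, numbered 53 around Bmp15, which lies near one end of chromosome X, with 4 higher and 9 lower (24.5%, beside 28.1% of all genes). Around Gdf9 on chromosome 11 they numbered 100, with 10 higher and 26 lower (36%). Of the called genes 1895 had another tested probe set, and 2608 of their 3247 other probe sets (80.3%) had the same sign, while 95 genes had an opposed one at an unadjusted p under 0.05.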

How the data were processed

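RNA of 9 pools of cumulus cells was hybridised to 1 Affymetrix array each. The authors deposited log2 expression values per probe set, made with RMA of the affy package per the submitters' processing notes, which give no version. RMA scales the arrays to each other, so a shift shared by most genes may not be seen in full. The deposited values still differed in distribution. Medians ran from 5.52 to 5.59, and the interquartile range from 3.16 on DM array 3 to 3.42 on wildtype array 1. The excess of lower calls depended on this scaling, as given for quantile normalization. Of 45101 probe sets 34958 were paired with 1 gene, 932 with several and 9211 with none by the platform annotation, and the last 2 kinds were left out. All values were used on the log2 scale as deposited.

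One linear model of the 9 arrays with a mean per genotype was fitted in limma 3.58.1 (R 4.3.3) with empirical Bayes moderation, and p-values were adjusted by Benjamini and Hochberg over 13447 genes at 0.05, so that the spread is shared by all 3 genotypes (6 residual degrees of freedom). The median standard deviation of a gene was 0.16 in DM, 0.12 in Bmp15-/- and 0.10 in wildtype. Where DM spread widely the printed SE can be too small, as for Scd1, with standard deviations of 0.93 in DM and 0.09 in wildtype. Tested on simulated data of this size for DM against wildtype, with 13447 genes, the fit recovered 51.3% of 1.5-fold, 85.1% of 2-fold and 99.7% of 4-fold changes, and 4.37% of calls were false. The simulation changed only a small share of the genes and drew independent noise with 1 spread per gene for all groups. In the data 28.1% of genes were called and DM was more variable, so these shares may not carry over. A false share near 0.05 is what the adjustment sets under such noise. The number of arrays limits the precision.

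The genes named were the 25 largest called rises and falls in DM among genes whose DM and wildtype arrays did not overlap. The 10 largest each way against Bmp15-/- and members of the gene groups were named as well. The members and the groups were chosen with earlier results of these data known. Alternatives changed the normalization, the probe set, the filter on dim genes, the model, the arrays and the replicate number as a block. Figures were drawn with matplotlib 3.10.9. No genome sequence other than the RefSeq promoter table was used.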

Additional observations from a re-analysis of the deposited data

How the results depend on the processing

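The count of genes called in DM against wildtype ran from 3092 (oocyte marker level as a covariate) to 4208 (array weights) beside 3780, and from 2648 to 4157 when 1 array was left out; each stayed within 1.5 times. DM against Bmp15-/- gave 319 to 607 calls beside 437, and 105 to 922 when 1 array was left out. Bmp15-/- against wildtype gave 2350 calls with array weights beside 1219, and 445 to 1663 when 1 array was left out; the cause was not tested. Replicate numbers 1 to 3 appear in the titles of all 3 genotypes. With the replicate number as a block the 3 comparisons gave 3587, 360 and 1084 calls, and Bmpr1a, Grem1 and Hif1a lost their calls in DM against wildtype. Deviations of same-numbered arrays correlated at 0.12, 0.05 and -0.08, and 2 of 3 DM arrays were closest to their own number, so the numbers were not taken to pair the pools. Of 200 named genes called in DM against wildtype 180 kept their call under each of the 21 alternatives in which they were tested. A gene that a stricter filter left out was not counted as lost. Read from the probe set with the highest SD, Mcm6 stood at 1.03, Mcm4 at -0.60, Gja1 at -0.81 and Fscn1 at -0.96, and with the mean of probe sets Fscn1 stood at -0.35 and Epcam at 0.23, each with its sign turned; the probe set read is what these settings change. The median over all genes was -0.062, and it was -0.003 after quantile normalization and -0.054 after median centring. DM arrays 2 and 3 had weights of 0.48 and 0.49. Genes near the 40th percentile understate changes.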

Other observations

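Potassium channels changed gene by gene, 9 of 50 higher in DM and 3 lower, or 1 lower without wildtype array 3. Kcnd3, a voltage-gated channel, read 8.79, 8.82 and 9.43 on the wildtype arrays and 11.45, 11.23 and 11.15 on the DM arrays, and Kcnk2, a leak channel, read 5.77, 5.22 and 5.64 and 7.38, 7.83 and 6.58, with no overlap in either gene. Kcnma1, the large-conductance channel gated by calcium, went the other way, from 9.59, 9.51 and 9.54 to 8.55, 8.38 and 8.69. Read from the probe set with the highest SD, Kcnma1 stood at -0.39 and was not called. In WNT signalling 6 of 31 genes fell and 5 rose, or 3 rose without wildtype array 2. The falls were near the 18.2% of all genes, and 9.95% of all genes rose. The receptors Fzd1 (-1.53) and Fzd7 (-0.74) fell, while the nuclear factor Tcf7l2 rose by 1.03.

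Antigen presentation and interferon genes divided, 7 of 23 lower and 4 higher, and 4 were lower without wildtype array 1 or 3 or DM array 1. The signal transducer Stat2 fell by 0.60 and Ifitm2, an antiviral membrane protein, fell by 0.60, while its relative Ifitm3 rose from 6.82, 6.75 and 7.07 to 8.27, 8.13 and 8.25. Of 34 genes of glutathione and redox defence 7 fell and 5 rose, beside 18.2% and 9.95% of all genes. The falls were thus near the share of all genes. They became 4 without any single wildtype array, Bmp15-/- array 2, or DM array 1 or 3. Hmox1, which degrades heme, read 8.97, 9.02 and 8.95 in wildtype and 7.93, 7.54 and 7.34 in DM, and Gsta4, a glutathione transferase, read 9.84, 9.40 and 10.09 and 11.56, 11.47 and 11.05. Among lysosome and autophagy genes 10 of 45 rose, the largest being Gabarapl1 at 0.99, and 4 fell. The rises became 6 without wildtype array 1, 2 or 3 or DM array 2, and the falls 1 without wildtype array 1 and 2 without wildtype array 2 or 3 or DM array 3. Of 25 aminoacyl-tRNA synthetases, which charge transfer RNA, 9 fell and 2 rose.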
